A study of Homo sapiens with 2 samples.

Results

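The subject is a group of 9 human genes of the interferon system in GFP-SAS cells: the transcription factors IRF1, IRF3, IRF7, IRF9 and STAT2 and the interferon-induced genes ISG15, IFI6, IFIT1 and IFIT3. Every probe set annotated to 1 of these symbols alone was taken, which gave 19 probe sets of 49386 on the array. They cover 8 of the 9 genes; no probe set is listed for STAT2 in the annotation used, and STAT2 is not analysed here. GFP-SAS is a line of human tongue squamous cell carcinoma that carries green fluorescent protein. The first group is GFP-SAS cells given 25 nM of an antisense oligonucleotide of LNA and DNA, directed at miR-361-3p, for 24 h, and its control is GFP-SAS cells given a non-target oligonucleotide of the same kind at the same dose and time. Each group was measured on 1 array, so the spread between cultures is unknown, no difference has a replicate check, and no p-value can be given. Both groups carried an oligonucleotide, and a response that the treatments share would not appear in their difference.

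Interferons are secreted proteins by which cells warn their neighbours of infection. Foreign nucleic acid inside a cell is bound by sensor proteins, which through adaptors and kinases activate IRF3 and IRF7, and these switch on interferon genes. Secreted interferon then binds its receptor and activates the kinases JAK1 and TYK2, and the resulting complex ISGF3, which contains STAT2 and IRF9, binds the interferon-stimulated response element (ISRE) in promoters of induced genes. The gamma-activated site (GAS) is a second kind of element, bound by STAT dimers, and IRF1 is a known gene under its control. In epithelial tumour cells, a low level of such induced genes can be present without infection.

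The inhibited microRNA is shown first, because it is what differs between the groups by design. The mature sequence is from RefSeq (GRCh38.p14, chrX:85903641-85903663, minus strand), with the seed, bases 2 to 8, in capitals.
hsa-miR-361-3p: uCCCCCAGgugugauucugauuu

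The promoters are shown because the induced genes share a known element while their differences between the arrays varied. RefSeq windows of 300 bases (250 before and 50 after the annotated start, GRCh38.p14) were found for 7 of the 9 genes. They were searched on both strands for the ISRE core GAAANNGAAA, whose other strand reads TTTCNNTTTC, and for the palindromic GAS core TTCNNNGAA. Capitals mark ISRE matches in ISG15, IFI6, IFIT1 and IFIT3 and GAS matches in IRF9 and IRF1, and each sequence reads 5′ to 3′ along the gene.
ISG15 (chr1:1013247-1013546, plus strand): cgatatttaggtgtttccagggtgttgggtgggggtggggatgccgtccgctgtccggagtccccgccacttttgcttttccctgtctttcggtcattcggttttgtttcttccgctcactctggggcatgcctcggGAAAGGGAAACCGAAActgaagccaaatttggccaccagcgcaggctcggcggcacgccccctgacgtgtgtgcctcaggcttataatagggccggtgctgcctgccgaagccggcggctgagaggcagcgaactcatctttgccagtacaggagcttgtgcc
IFI6 (chr1:27672143-27672442, minus strand): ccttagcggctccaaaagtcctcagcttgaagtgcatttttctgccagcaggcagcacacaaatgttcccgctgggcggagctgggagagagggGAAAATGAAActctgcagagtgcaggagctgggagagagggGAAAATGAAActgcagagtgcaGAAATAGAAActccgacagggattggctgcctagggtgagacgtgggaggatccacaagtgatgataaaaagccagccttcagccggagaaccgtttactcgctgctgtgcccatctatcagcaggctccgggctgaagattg
IFIT1 (chr10:89392373-89392672, plus strand): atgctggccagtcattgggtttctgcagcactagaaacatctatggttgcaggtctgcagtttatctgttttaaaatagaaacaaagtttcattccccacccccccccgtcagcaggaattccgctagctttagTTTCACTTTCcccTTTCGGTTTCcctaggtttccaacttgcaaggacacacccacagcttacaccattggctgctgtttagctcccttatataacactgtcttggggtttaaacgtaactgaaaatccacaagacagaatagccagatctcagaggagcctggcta
IFIT3 (chr10:89327747-89328046, plus strand): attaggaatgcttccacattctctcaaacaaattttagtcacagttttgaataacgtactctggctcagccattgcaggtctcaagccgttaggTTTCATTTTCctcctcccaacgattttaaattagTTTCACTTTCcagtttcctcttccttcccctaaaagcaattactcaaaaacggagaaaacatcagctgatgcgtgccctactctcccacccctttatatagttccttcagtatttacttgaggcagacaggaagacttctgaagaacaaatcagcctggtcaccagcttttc
IRF9 (chr14:24161015-24161314, plus strand): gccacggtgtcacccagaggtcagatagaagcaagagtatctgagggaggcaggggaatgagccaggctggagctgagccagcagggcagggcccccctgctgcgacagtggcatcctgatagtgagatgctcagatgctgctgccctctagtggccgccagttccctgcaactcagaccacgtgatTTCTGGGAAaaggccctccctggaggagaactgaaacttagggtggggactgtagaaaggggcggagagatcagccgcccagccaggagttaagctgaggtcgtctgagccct
IRF1 (chr5:132490724-132491023, minus strand): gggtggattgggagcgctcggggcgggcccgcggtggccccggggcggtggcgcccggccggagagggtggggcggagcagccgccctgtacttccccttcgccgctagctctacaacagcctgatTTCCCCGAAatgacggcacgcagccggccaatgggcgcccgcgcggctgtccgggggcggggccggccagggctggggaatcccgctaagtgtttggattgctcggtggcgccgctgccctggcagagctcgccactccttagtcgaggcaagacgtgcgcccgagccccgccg

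IFI6 held 3 ISRE matches, beginning 156, 115 and 93 bases before the start. ISG15 held 2 matches that overlap each other, beginning 113 and 107 bases before the start. IFIT1 held 2 matches and each of the 2 IFIT3 windows held 2, all on the other strand. The windows of IRF9, IRF1 and STAT2 held no ISRE core. The GAS core stood 63 bases before the start of IRF9 and 124 bases before that of IRF1. Among 35116 promoter windows of the same length, 3.57% held the ISRE core and 7.66% the GAS core. A match describes letters only and shows no binding.

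**Figure D1:**
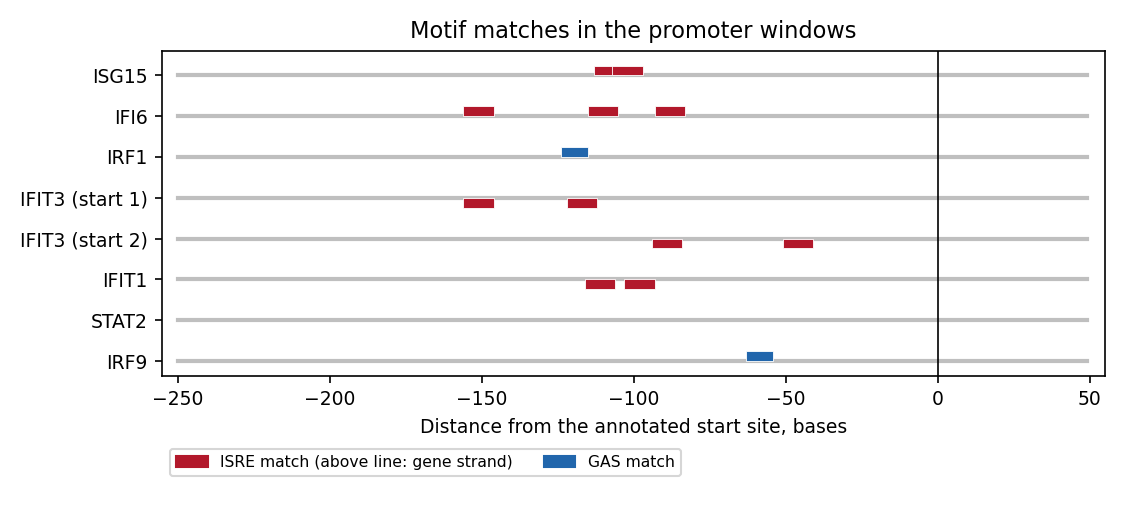
Positions of ISRE core matches (red) and GAS core matches (blue) in the promoter windows of 7 genes, against the distance from the annotated start site in bases; bars above a line are on the gene's strand and bars below it on the other. ISRE matches appear in ISG15, IFI6, IFIT1 and both IFIT3 windows, and a GAS match in IRF1 and in IRF9.

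The array values are log2 expression values made with RMA, so a difference of 1 is a 2-fold change, and all differences are the anti-miR array minus the control array. A probe set was retained where it reached the array's median (4.64 with the anti-miR and 4.63 in the control) on at least 1 array, and a gene's value is the mean over its retained probe sets. This gave 11272 measured genes, whose median difference was 0.13 with quartiles of -0.21 and 0.33. The SD between probe sets of a gene, pooled over the 6263 genes that retained 2 or more, was 0.29. It is a technical error within the arrays, and probe sets of a gene can share probes. Poly-A control transcripts, which enter before labelling, differed by 0.32 ± 0.19 (SD, n = 12 probe sets), while GAPDH differed by -0.0047 and ACTB by -0.13. The part of such an offset in any difference below was not tested.

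As a check of the label, 8 epithelial markers were chosen, of which 5 had a probe set of 1 symbol and 4 were measured. These 4 were KRT5 (8.89 with the anti-miR and 9.08 in the control), CDH1 (8.64 and 9.18), EPCAM (11.14 and 11.28) and DSG3 (5.52 and 5.40). KRT14 did not pass the filter. None of 8 leukocyte markers and none of 6 fibroblast markers with a probe set passed it. The highest probe set of the leukocyte markers was 4.33 with the anti-miR and 4.27 in the control, and that of the fibroblast markers was 4.03 and 3.83. In such bulk RNA, fewer responding cells and less RNA per cell cannot be told apart.

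All 8 analysed genes had at least 1 retained probe set, 16 of the 19 probe sets in total. With the anti-miR, IRF9 was the single gene higher by 1.5-fold or more, and 0 of the 8 were lower by as much. Among all measured genes, 8.23% were higher by 1.5-fold or more and 14.2% lower, or 4.43% and 17.3% once the median difference was subtracted, when 0 of the 8 were higher and 0 lower. By retained probe set, 2 of 16, both of IRF9, were at least 1.5-fold higher and 0 lower, against 8.60% and 16.9% of 24127 retained probe sets. Of these, the IRF9 probe set at 5.02 with the anti-miR was retained through the anti-miR array alone, where it is higher by construction. Probe sets of a gene can share probes and are not replicates. The median difference of the 8 genes was 0.40, beside 0.13 for all measured genes. These 8 were chosen with earlier results of these data known, so this and the counts below only describe them. Their differences ranged from -0.14 for IFIT1 to 0.68 for IRF9. Of the 8 genes, 6 were above 0, beside 62.3% of all measured genes, and 5 were at or above the upper quartile of all measured genes, 0.33. IRF7 is in both counts and passed the filter through the anti-miR array alone, so it is higher there by construction. All 8 lie in the 2 groups of shortest genomic span, described further below, where the lower quartile was 0.09. Most genes of like span were thus above 0 too, and 6 of 8 is no excess over them. Medians in those groups were 0.25 and 0.26, with upper quartiles of 0.43 and 0.44.

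**Figure D2:**
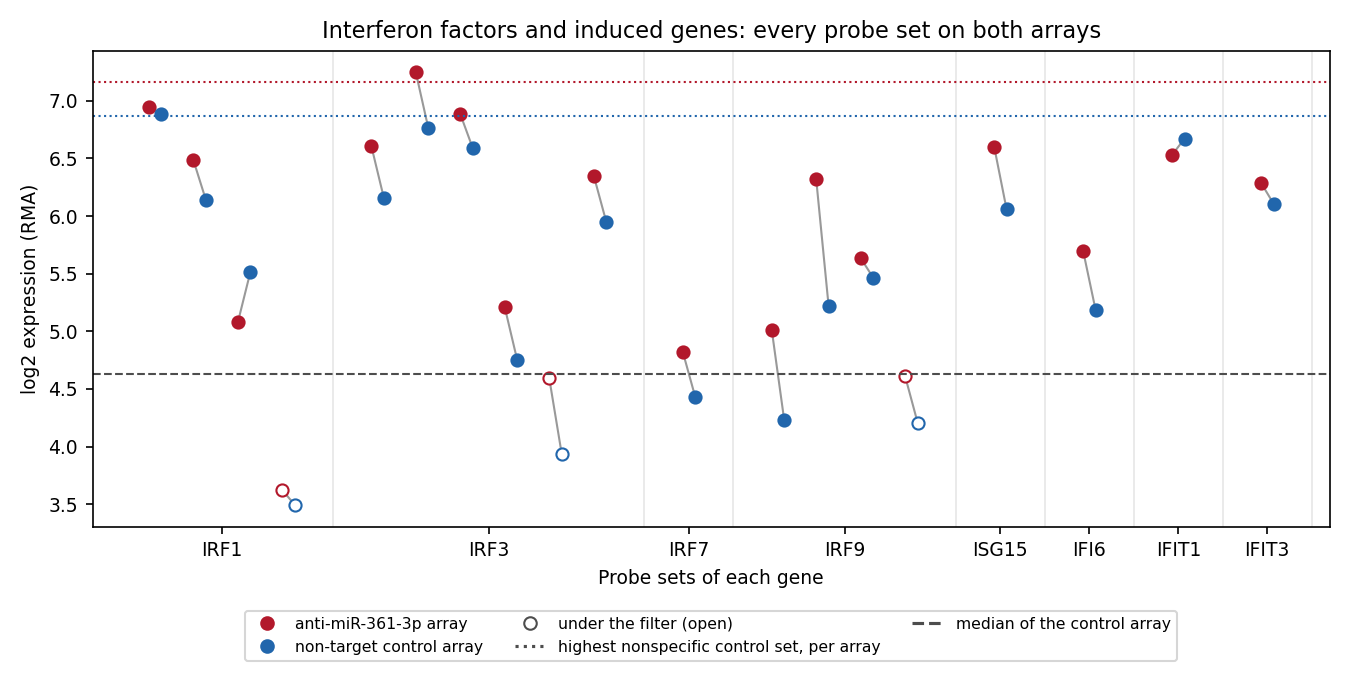
Log2 expression (RMA) of all 19 probe sets on the anti-miR-361-3p array (red) and the non-target control array (blue), joined by a line for each probe set; open points did not pass the filter. The anti-miR value is the higher in 14 of the 16 retained probe sets, beside 57.5% of all retained probe sets, and in 17 of 19 with the open ones. The exceptions are 1 probe set of IRF1 and that of IFIT1. The probe set of IRF7 and that of IRF9 at 5.02 passed the filter through the anti-miR array alone, where they are higher by construction. All 8 genes are in the shortest 2 span groups, where the lower quartile of gene differences was 0.09. No share for probe sets of genes of like span is given. The genes were chosen with earlier results of these data known. Probe sets of a gene can share probes and are not replicates. Dotted lines mark the highest nonspecific control set on each array and the dashed line the median of the control array.

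IRF3 is the factor that lies dormant in the cytoplasm until sensor kinases phosphorylate it. Its retained probe sets had 7.25, 6.88, 6.61, 6.35 and 5.21 with the anti-miR, against 6.77, 6.59, 6.16, 5.95 and 4.75 in the control. Every one of these 5 was higher on the anti-miR array, by 0.29 to 0.48. The gene difference was 0.42 ± 0.07 (SD over 5 probe sets), a 1.33-fold higher value, which is short of 1.5-fold. This was the smallest spread between probe sets among the 3 genes that had several. Relative to the median gene the difference was 0.29. Of these probe sets, 3 carry the suffix _x, which in the maker's naming marks probes that may match other transcripts too.

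IRF7, which amplifies interferon production and is itself interferon-induced, had 4.82 with the anti-miR and 4.43 in the control. The difference from this 1 probe set was 0.39. This control value was under the median of its array, so IRF7 was retained through the anti-miR array alone, and the size of its fold is uncertain.

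IRF9 is the DNA-binding part of ISGF3. Its retained probe sets had 6.32, 5.64 and 5.02 with the anti-miR, against 5.22, 5.47 and 4.23 in the control. All were higher on the anti-miR array, but by unequal amounts: 1.10, 0.17 and 0.78. The mean difference was 0.68 ± 0.47 (SD over 3 probe sets), or 1.61-fold, which ranked 574 of 11272 genes by increase. The probe sets thus ranged from 1.12-fold to 2.15-fold. The 1.5-fold line stands at 0.58 on the log2 scale, and the SD between probe sets was larger than the distance of the gene value from that line. The probe set at 5.02 was below the median on the control array and was retained through the anti-miR array alone. With the dim probe set included as well, IRF9 differed by 0.61 over 4 probe sets. Relative to the median gene its difference was 0.55, which is short of the 1.5-fold line.

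IRF1, a factor induced by interferon gamma that activates antiviral and antigen presentation genes, had 6.95, 6.49 and 5.08 with the anti-miR, against 6.88, 6.14 and 5.51 in the control. These probe sets disagreed in direction, at 0.07, 0.34 and -0.43. Their mean of -0.0085 ± 0.39 (SD over 3 probe sets) was smaller than the spread between them. The probe sets at 0.34 and -0.43 were farther apart than the 1.5-fold line is from 0.

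Among the induced genes, ISG15 encodes a ubiquitin-like protein that is attached to other proteins. Its 1 probe set had 6.60 with the anti-miR and 6.06 in the control, a difference of 0.54 or 1.46-fold. IFI6, a mitochondrial and membrane protein with antiviral activity, had 5.70 with the anti-miR and 5.19 in the control, a difference of 0.51 or 1.43-fold. Both differences exceeded the pooled SD of 0.29 and stopped short of 1.5-fold. That SD is between probe sets of a gene and holds no spread between cultures, so it cannot tell whether a difference would repeat. By increase, ISG15 ranked 1130 and IFI6 1301 of 11272 genes.

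The IFIT genes encode proteins that bind foreign RNA and block its translation. IFIT1 had 6.53 with the anti-miR and 6.67 in the control, a difference of -0.14. IFIT3, which binds IFIT1 and stabilises it, had 6.29 with the anti-miR and 6.11 in the control, a difference of 0.18. Both lay within the pooled SD of 0.29, which holds no spread between cultures. Each of these 4 induced genes rests on 1 probe set, and those of IFIT3 and ISG15 are of kinds (_x and _s) that may also read other transcripts.

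**Figure D3:**
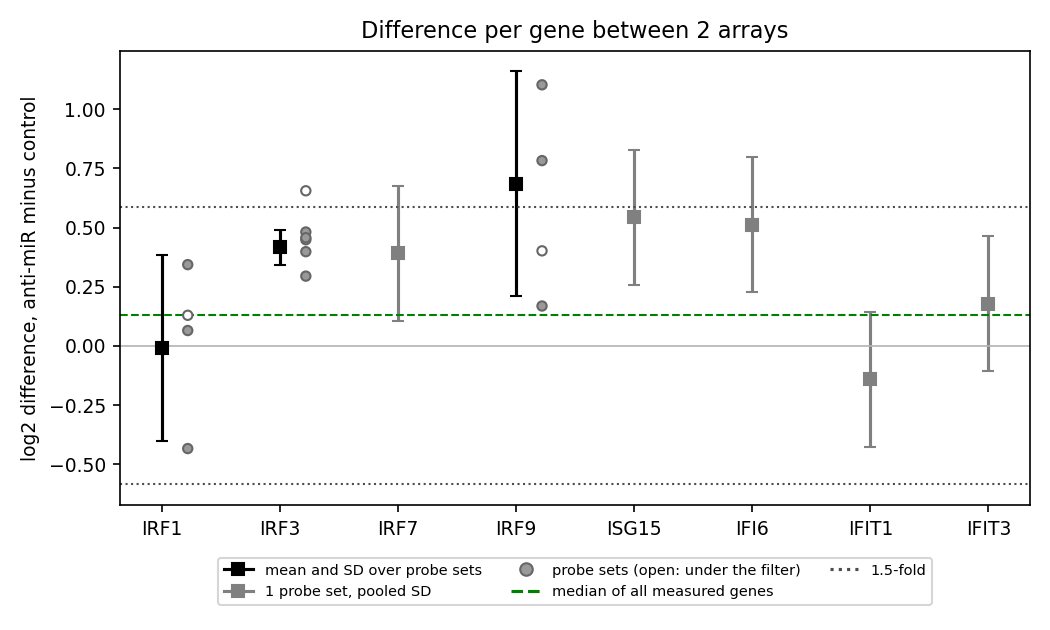
Log2 difference (anti-miR minus control) of 8 genes; squares are gene values, bars the SD over probe sets (black) or, for genes with 1 probe set, the pooled SD of 0.29 (grey), and circles the probe sets, open where under the filter. IRF9 at 0.68 is the one square above the dotted 1.5-fold line, and its bar crosses that line. The retained probe sets of IRF3 lie close together, and its open one, at 0.66, is above the line.

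The values carry no detection calls, and the array's 23 nonspecific control probe sets give the nearest view of background. They reached 7.16 with the anti-miR and 6.87 in the control, with upper quartiles of 3.42 and 3.20. Of the 19 probe sets, 17 lay within this range on both arrays. The exceptions were the brightest of IRF3, above the range on the anti-miR array (7.25), and the brightest of IRF1, above it on the control array (6.88). For the 16 retained probe sets, at most 3 of the 23 nonspecific sets were as high or higher on either array. None of the 19 probe sets was above the range on both arrays, and the sizes of all their folds are uncertain.

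Across the arrays, differences followed the genomic span of genes, a property that the choice of the 9 genes did not use. The span of the 8 genes in the RefSeq table ran from 1.04 kb (ISG15) to 13.9 kb (IFIT1), with a median of 6.21 kb. The measured genes were ordered by span and cut into 5 groups of equal size. In the shortest group (up to 8.73 kb) the median difference was 0.25 with quartiles of 0.09 and 0.43, and 12.6% were at least 1.5-fold higher and 1.91% lower. In the second group (up to 19.6 kb) these were 0.26, 0.09 and 0.44, with 13.5% higher and 2.75% lower. In the longest group the median was -0.45, with 1.15% higher and 43.6% lower. Beside genes of like span, both 1 of 8 higher (IRF9) and 0 of 8 lower are thus near the background.

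The shortest group held IRF3, IRF7, IRF9, ISG15 and IFI6, and the second held IRF1, IFIT1 and IFIT3. Against their own span group, IRF9, ISG15 and IFI6 were above the upper quartile, IRF3 and IRF7 were inside the quartiles and above the median, and IFIT3 was inside them and below the median. IRF1 and IFIT1 were below the lower quartile. The part of gene span in these differences was not tested.

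**Figure D4:**
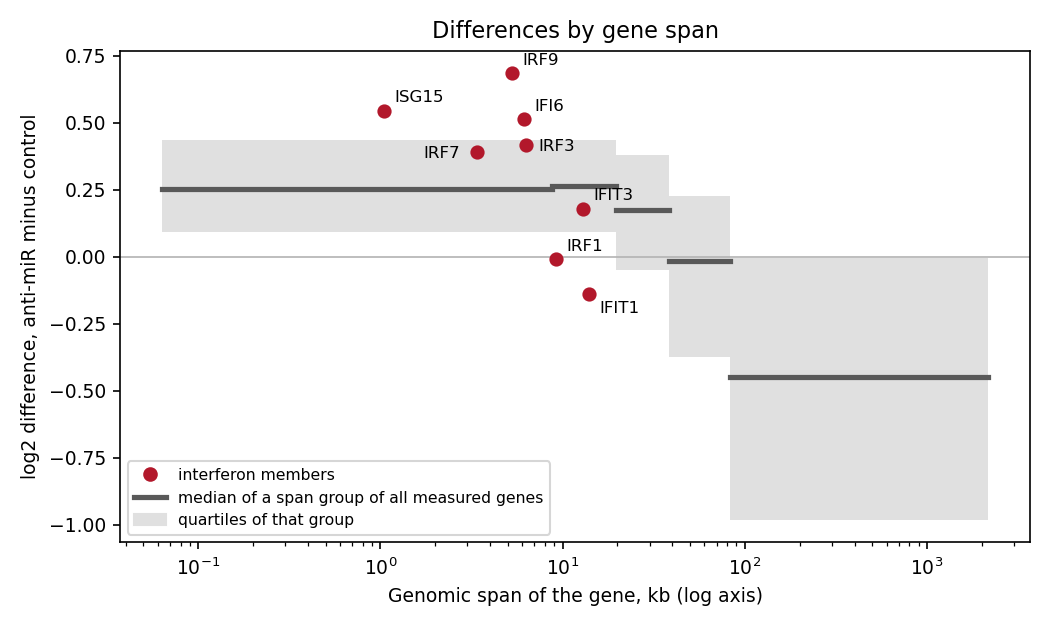
Log2 difference (anti-miR minus control) against genomic span in kb on a log axis; red points are the 8 genes, dark lines the median and grey bands the quartiles of each of the 5 span groups of all measured genes. All 8 genes are in the shortest 2 groups, whose medians are 0.25 and 0.26, while the longest group has a median of -0.45.

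To place these genes in their pathway, 111 further genes in 10 lists were examined, of which 65 were measured. Of the 65, 4 were higher with the anti-miR by 1.5-fold or more and 9 lower, and their median difference was 0.09, beside 0.13 for all measured genes. Among all measured genes 8.23% were higher and 14.2% lower by as much, so both counts are near the background. Of the 9 lower genes 6 spanned more than 38.4 kb, as did 84.6% of all lower genes, and of the 4 higher genes 1 did, as did 12.7% of all higher genes. Of the 65 genes, 8 passed the filter through 1 array alone, including 1 of the 4 higher and 3 of the 9 lower genes, and a gene that passes in this way is by construction nearly always higher on that array. On the array where they were dimmer, 11 of these 13 genes had all their retained probe sets within the range of the nonspecific control sets, the exceptions being JAK1 and EIF2AK2, so the sizes of those 11 folds are uncertain.

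At the start of the pathway, 13 nucleic acid sensors were on the array and 4 were measured. EIF2AK2, the kinase PKR that is activated by double-stranded RNA and is itself interferon-induced, had 7.38 with the anti-miR and 8.31 in the control. Its difference was -0.93 ± 0.10 (SD over 2 probe sets), or 1.90-fold lower. RIGI, a sensor of viral RNA ends, had 4.47 with the anti-miR and 4.97 in the control, a difference of -0.50 ± 0.12 (SD over 3 probe sets). All 3 were below the median with the anti-miR and passed the filter through the control array alone, where they were higher. The other two, named after their values were seen, were the DNA sensor IFI16, at -0.57 ± 0.04 (SD over 3 probe sets), and STING1, the adaptor of cytosolic DNA sensing, at 0.33 (1 probe set).

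Of 9 measured adaptors and kinases downstream of sensors, TRAF6, a ubiquitin ligase of Toll-like receptor signalling, was 1.56-fold higher (4.90 with the anti-miR and 4.26 in the control, 1 probe set). It passed the filter through the anti-miR array alone. The other 8 were within 1.5-fold, and the list median was 0.08. Of 12 interferon ligands on the array 1 was measured. This was IFNE, an epithelial type I interferon, with 4.43 with the anti-miR and 5.07 in the control, a difference of -0.64. Its anti-miR value lay below that array's median.

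At the receptor, both sides of the kinase pair passed 1.5-fold in opposite directions. JAK1 had 6.36 with the anti-miR and 7.27 in the control, with a difference of -0.90 ± 0.08 (SD over 3 probe sets), or 1.87-fold lower. TYK2 had 7.28 with the anti-miR and 6.33 in the control, a difference of 0.95 from 1 probe set, or 1.93-fold higher. IFNLR1, a receptor chain for type III interferon common on epithelia, had 5.59 with the anti-miR and 6.55 in the control, a difference of -0.97 from 1 probe set. The type I receptor chains, named after their values were seen, differed by 0.06 ± 0.44 for IFNAR1 (SD over 4 probe sets) and 0.08 ± 0.18 for IFNAR2 (SD over 3 probe sets). JAK1 spans 235 kb and TYK2 30.0 kb.

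Of the other STAT factors 4 were measured. STAT3, which signals for interleukin 6 and growth factors, had 6.55 with the anti-miR and 7.21 in the control, with a difference of -0.66 ± 0.21 (SD over 3 probe sets). STAT4 differed by -0.70 with the filter (1 probe set, below the array's median with the anti-miR and at 4.69 in the control) and by -0.32 over 2 probe sets without it. STAT5B differed by -0.11 ± 0.47 and STAT6 by 0.08 ± 0.07 (SD over 3 probe sets each). The other IRF genes that were measured were within 1.5-fold: IRF2, an antagonist of IRF1, at -0.47 (1 probe set), IRF5 at 0.18 ± 0.08 (SD over 3 probe sets) and IRF8 at 0.22 (1 probe set).

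Among the other induced genes, 24 were measured, of which 1 was higher, 1 was lower and 22 were within 1.5-fold. Their median difference was 0.23, and 21 of them were above 0, beside 62.3% of all measured genes. The measured sensors are not in this count: EIF2AK2 (-0.93), IFI16 (-0.57), RIGI (-0.50) and STING1 (0.33). The count thus depends on how genes were divided among the lists. OAS1, IFI35 and XAF1 are in it, and they passed the filter through the anti-miR array alone, so they are higher there by construction. The lists were chosen with earlier results of these data known. No share for genes of like span is given, and the lower quartile of the shortest 2 span groups was 0.09. SP110, a nuclear body protein, had 6.51 with the anti-miR and 5.73 in the control. Its 5 probe sets were all higher on the anti-miR array, by 0.62 to 1.01, with a mean of 0.78 ± 0.15 (SD over 5 probe sets), or 1.71-fold. EPSTI1 had 6.91 with the anti-miR and 7.85 in the control, a difference of -0.93 from 1 probe set. The 6 measured IFIT, OAS and related genes were all above 0 and within 1.5-fold, from 0.12 to 0.43. OAS1, an enzyme that makes the activator of an antiviral nuclease, differed by 0.43 (1 probe set, which passed the filter through the anti-miR array alone) and by 0.28 over 4 probe sets without the filter.

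For ISG15 conjugation, 3 of 5 listed genes were measured and all were within 1.5-fold. The one with the largest absolute difference was UBA7, the activating enzyme, at 0.20 (1 probe set). Among 9 measured negative regulators, the SUMO ligases PIAS1 and PIAS3, which restrain STAT factors, lay on opposite sides. PIAS3 had 7.19 with the anti-miR and 6.35 in the control, a difference of 0.84 ± 0.27 (SD over 2 probe sets), and 0.37 over 5 probe sets without the filter. PIAS1 had 5.72 with the anti-miR and 6.67 in the control, a difference of -0.95 from 1 probe set. SOCS3, a feedback inhibitor of JAK kinases, had 4.11 with the anti-miR and 4.83 in the control, a difference of -0.72, and of -0.24 over 2 probe sets without the filter. It passed the filter through the control array alone.

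**Figure D5:**
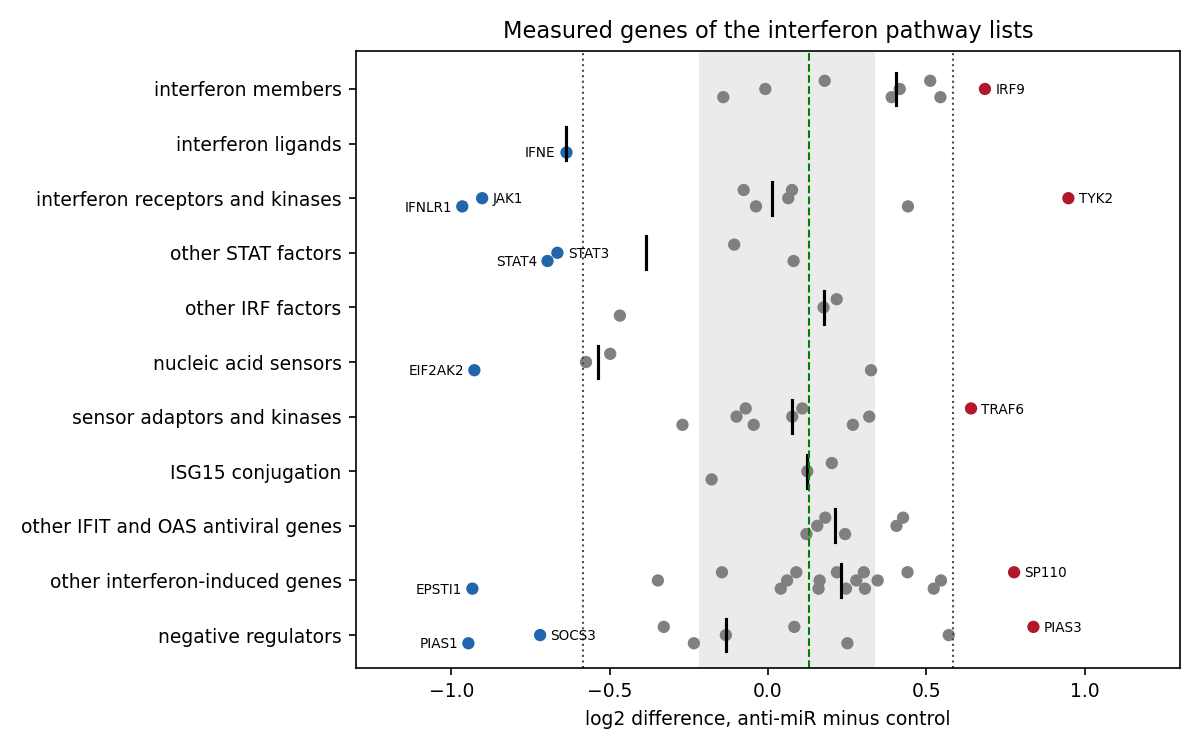
Log2 difference (anti-miR minus control) of each measured gene, by list; red points are higher with the anti-miR by 1.5-fold or more, blue points lower by as much, black bars the list medians, and the grey band and dashed line the quartiles and median of all measured genes. The 8 interferon members have a median of 0.40, and the 4 measured of 13 sensors one of -0.54. Members and lists were chosen with earlier results of these data known. RIGI among these sensors and IRF7 among the members each passed the filter through 1 array alone, the one where it was higher. EIF2AK2, IFI16 and RIGI span 55.2 to 70.9 kb, and the 8 members at most 13.9 kb. The part of gene span in this contrast was not tested.

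The ISRE core was also followed across all measured genes. The 349 measured genes with an ISRE core in a promoter window had a median difference of 0.09, beside 0.13 for all 9281 measured genes with a window. Of those 349 genes 8.31% were at least 1.5-fold higher and 17.5% lower, against 8.33% and 14.8% of the 9281. For the GAS core, 793 measured genes had a median difference of 0.11. The ISRE-bearing ISG15, IFI6, IFIT1 and IFIT3 thus spread from -0.14 to 0.54, around a median of 0.35 for those 4.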

How the data were processed

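Total RNA (10 ng) of GFP-SAS cells was labelled with biotin for Affymetrix 3′ expression arrays, per the labels' protocols. The authors deposited a log2 value for each probe set, and per the submitters' processing notes the method was RMA, which corrects background, equalises array distributions and summarises probes; its version is not given in the sources used here. Each group has 1 array, and this number limits the precision.

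Of 49386 probe sets, 45259 had 1 gene symbol, 1327 several and 2800 none listed here; 93 were array controls. Of the 45253 used, 45172 were found by Entrez ID in the RefSeq gene table (GRCh38.p14), which gave current symbols. The files name no genome build, so gene coordinates are not given and promoter coordinates are those of RefSeq. Calls are differences of at least 1.5-fold. The calculation was tested on simulated data with less noise between probe sets than these arrays and no offset between arrays. That checks the code and gives no error rate for the 1.5-fold calls. The alternatives were other filters, ways of averaging, centring, plain _at probe sets and a 2-fold threshold. Genes named were all members, every listed gene past 1.5-fold or otherwise the one with the largest absolute difference of a list, and the other IRF and STAT genes with RIGI, IFIH1 (not measured) and EIF2AK2; exceptions are stated. Members and lists were chosen with earlier results of these data known. With 2 arrays each gene has 1 difference, so likeness of pattern between genes was not computed. The software was pandas 2.3.3, numpy 2.4.6, statsmodels 0.14.6 and matplotlib 3.10.9 under Python 3.11.15.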

Additional observations from a re-analysis of the deposited data

Results flagged for a closer look

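Values higher than on the control array were found in 3 probe sets that entered no gene value because they lay below the median on both arrays. The dim probe set of IRF3 had 4.59 with the anti-miR and 3.94 in the control, a difference of 0.66, which is past 1.5-fold and larger than that of any retained IRF3 probe set. The dim probe set of IRF9 had 4.61 with the anti-miR and 4.21 in the control, a difference of 0.40. The dim probe set of IRF1 had 3.62 with the anti-miR and 3.49 in the control, a difference of 0.13, equal to the median of all measured genes. Of the 23 nonspecific control probe sets, 3 to 5 were as high or higher on each array, so none of these values is shown to be above background.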

How the results depend on the processing

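Leaving out an array was not possible with 1 in each group. No paired analysis was possible because there is a single pair of arrays. IRF9 was the 1 gene past 1.5-fold, and the number of members at least 1.5-fold higher was 0 with the 75th percentile filter (4 members measured, IRF9 not among them), 0 after centring on the median, 0 after centring on a lowess trend (fraction 0.3), and 0 at a 2-fold threshold. It was 1 in the other settings, and the number lower was 0 in every setting. The range over settings was 0.55 to 1.10 for IRF9, 0.29 to 0.48 for IRF3, 0.41 to 0.54 for ISG15, 0.38 to 0.51 for IFI6, 0.21 to 0.39 for IRF7, 0.05 to 0.18 for IFIT3, -0.27 to -0.14 for IFIT1 and -0.14 to 0.20 for IRF1, which changed sign. The median of the members was 0.24 with the stricter filter, 0.27 after either centring, 0.42 with no filter and 0.65 with plain _at probe sets (2 members measured), beside 0.40 in the report. Of all measured genes, 928 were higher and 1602 lower, against 499 and 1951 after centring on the median, 547 and 1898 after the lowess trend, 139 and 787 at 2-fold, and 317 and 507 with plain _at probe sets, where 3407 genes were measured. Limits are 1 array a group and signal close to that of the nonspecific control probe sets.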
